A study of Drosophila melanogaster with 6 samples.

Results

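The genes described here build peroxisomes or oxidise fatty acids in the gut of adult Drosophila melanogaster. They are 36 of the 15391 rows of the count table: the 14 rows whose name begins with Pex and a digit, and 22 genes listed by name. The 22 split into 6 acyl-CoA oxidases and 16 genes of mitochondrial beta-oxidation, to which 2 acyl-CoA synthetases and the carnitine shuttle were counted. RNA from dissected midguts was sequenced in 3 libraries labelled Rab11_KD, in which an RNA interference construct against the recycling-endosome GTPase Rab11 was driven by Myo1A-Gal4, and in 3 libraries labelled WT. Myo1A-Gal4 is active in enterocytes, the absorptive cells of the midgut. All flies were adults, moved to 29 °C on day 5 after eclosion for a further 5 days. The sources used here do not say whether the WT flies carried the driver. The labels name enterocytes as the cell type, but the RNA came from whole midguts.

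Peroxisomes are single-membrane organelles that shorten very long chain fatty acids. Their first oxidation step is carried out by acyl-CoA oxidases, which pass electrons to oxygen and give hydrogen peroxide. Peroxins are the proteins that import enzymes into peroxisomes and build their membrane. Mitochondria oxidise the bulk of long chain fatty acids. A synthetase joins the acid to coenzyme A, the carnitine shuttle carries it across the membranes, acyl-CoA dehydrogenases open the cycle, and hydratases, hydroxyacyl-CoA dehydrogenases and thiolases complete it. Enterocytes take up dietary fatty acids, which they store, export or burn.

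Values are CPM, read counts divided by library size in the usual counts-per-million unit, after scaling by the trimmed mean of M-values (TMM), given for replicates 1, 2 and 3 in that order. Each log2 fold change sets the knockdown against the wild type and carries its standard error (SE). Both come from edgeR's quasi-likelihood test over 8377 genes, and the adjusted p is Benjamini-Hochberg over all of them with a threshold of 0.05. Library totals ran from 9818914 to 33082790 counts, and both replicate 3 libraries were deeper than the other 4. The targeted gene was lower in every knockdown library, with Rab11 falling from 319, 269.6 and 219 CPM to 64.4, 78.2 and 78.7 CPM (log2 fold change -1.87 ± 0.23 SE, adjusted p = 0.00342). Enteroendocrine markers rose in 7 of 7 cases, from a summed level of 152 to 191 CPM to one of 506 to 646 CPM. Stem cell and enteroblast markers rose in 3 of 6 cases, from a sum of 31.8 to 56.5 CPM to one of 106 to 115 CPM. No row of either list was at 0 in all libraries, but the stem cell marker sna was at 0 in wild-type replicate 1. None of 5 enterocyte markers passed in edgeR (2 at an unadjusted p under 0.05, and 3 called by DESeq2, 1 higher and 2 lower). Their sum, mostly the trypsins alphaTry and betaTry, was 33399 to 68953 CPM in wild-type libraries and 7346 to 31548 CPM in knockdown libraries. The 3 others went both ways, with Myo31DF below wild type in every knockdown library (log2 fold change -0.55) and mex1 (1.02) and nub (0.39) above. With the replicate number as a block in edgeR, mex1 passed as higher (adjusted p = 0.0168). In that fit alphaTry (0.0268) and betaTry (0.0200) passed as lower. The part of these shifts in the results below was not tested, and in bulk RNA fewer cells of a type and less RNA per cell cannot be told apart. Visceral muscle markers summed to 608 to 798 CPM after knockdown against 604 to 1460 CPM without it, with none of 8 called in edgeR (1 at an unadjusted p under 0.05, and 1 called by DESeq2). Marker genes of other tissues around the gut were detected, and whether tissue was carried over was not tested. Of 4 Malpighian tubule markers Best2 was called lower (log2 fold change -0.93 ± 0.22 SE, edgeR adjusted p = 0.0313, kept only without knockdown replicate 3 at 0.0427, and 0.0501 to 0.114 without any other library). Irk3 gave -1.51 and overlapped between the groups, and tyn gave 1.31 with every knockdown library above. Uro, the urate oxidase of Malpighian tubule peroxisomes, had 83.6, 180.4 and 246 CPM in wild-type libraries and 229, 150.4 and 247 CPM in knockdown libraries. Fat body markers summed to 176 to 817 CPM after knockdown against 6.10 to 239 CPM in wild-type libraries, with yolk protein genes holding most of it. Haemocyte markers summed to at most 1.65 CPM in any library, and oenocyte markers to at most 1.32 CPM in 5 libraries and 30.01 CPM in wild-type replicate 3.

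After Rab11 depletion 4 of 5 tested peroxisomal acyl-CoA oxidases, both listed acyl-CoA synthetases and 2 of 3 carnitine shuttle genes fell. Of 5 acyl-CoA dehydrogenases 1 fell and 1 rose, and the 6 genes of the later steps of the mitochondrial cycle passed no test. Of the 36 genes, 33 had enough counts to be tested, and 12 of these fell and 1 rose. Among all 8377 tested genes 7.63% fell and 9.05% rose. The other 3 falls were those of peroxins. The rise was that of the acyl-CoA dehydrogenase CG4860. The median log2 fold change was -0.49 over the 33 genes and 0.04 over all tested genes. With the replicate number as a block, 16 fell and 1 rose, against 14.0% and 15.2% of all tested genes. In 17 of the 33 genes every knockdown library lay below every wild-type library, as did 17.7% of all tested genes, and CG4860 alone of the 33 had every knockdown library above, where 20.2% of all tested genes did. DESeq2 called 15 as lower and 1 as higher, against 10.5% and 10.6% of the genes it tested. With no filter on low counts edgeR called 9 as lower and none as higher, against 3.92% and 4.77%. Without replicate 1, 2 or 3 of the knockdown 4, 6 and 9 fell, where 5.4%, 7.39% and 13.5% of all tested genes were called in either direction. Without replicate 1, 2 or 3 of the wild type 7, 7 and 12 fell, beside 6.54%, 8.72% and 12.9%, and no member rose in any of these 6 fits.

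**Figure D1:**
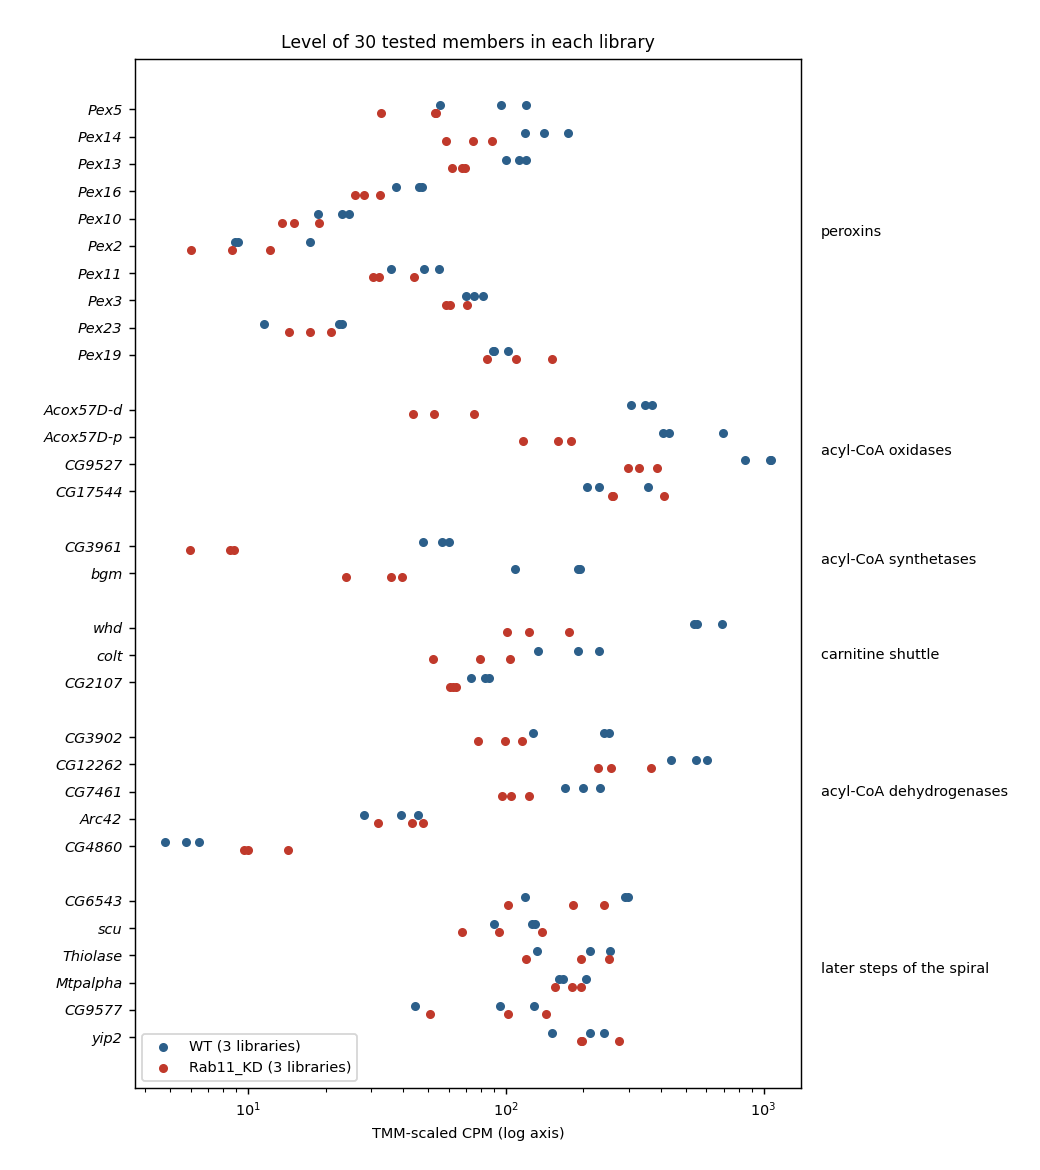
Level of 30 of the tested genes in the 6 libraries, as TMM-scaled CPM on a log axis, with wild-type libraries in blue and knockdown libraries in red. The red and blue points are apart for 3 of the 4 acyl-CoA oxidases shown, both synthetases and the 3 shuttle genes, and mixed for the 6 genes of the later steps.

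The acyl-CoA oxidases, which open peroxisomal beta-oxidation, held some of the deepest falls. Of 6 genes, 5 were tested and 4 fell, beside 7.63% of all tested genes. The log2 fold changes of the 4 lay between -2.57 and -1.56. Acox57D-d stood at 369, 348 and 305 CPM in the wild type and at 43.7, 75.4 and 52.9 CPM in the knockdown. Every knockdown library was thus below every wild-type library by a wide margin, and the fitted level left was 16.8% (log2 fold change -2.57 ± 0.27 SE, edgeR adjusted p = 0.00264). Acox57D-d passed in the fits without any single library.

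Its relative Acox57D-p stood at 428, 698 and 408 CPM in the wild type and at 159, 117 and 179.7 CPM in the knockdown. The groups did not overlap, and the log2 fold change was -1.75 ± 0.31 SE (edgeR adjusted p = 0.0121, or 0.064 without knockdown replicate 1). How alike the sequences of these neighbours in name are was not examined, so reads shared between them are uncertain.

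The most abundant oxidase of the wild-type gut per kilobase of exon was CG9527, annotated as Acox3. It stood at 1063, 1064 and 850.3 CPM in the wild type and at 328, 387 and 298 CPM in the knockdown. All wild-type libraries were above all knockdown libraries, and 34.0% of the level was left in the fit (log2 fold change -1.56 ± 0.27 SE, edgeR adjusted p = 0.0101, or 0.0686 without knockdown replicate 1).

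CG17544, the remaining oxidase with a high level, showed no such difference. Its libraries gave 207, 230.0 and 357 CPM in the wild type and 259.5, 257 and 412 CPM in the knockdown. The groups overlapped, with the replicate 3 library the highest of each, and the log2 fold change was 0.23 ± 0.31 SE (edgeR adjusted p = 0.677; -0.04 without knockdown replicate 3). CG4586 was close to silent, at 0 to 0.637 CPM in wild-type and 0.113 to 0.921 CPM in knockdown libraries, and had too few counts to be tested.

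The makeup of the oxidase transcripts therefore differed between the groups. Per kilobase of exon, 5 of the oxidases summed to 778, 884 and 725 CPM in the wild type and to 294, 311 and 354 CPM in the knockdown. CG17544 held 10.1, 9.88 and 18.7% of that sum in the wild type and 33.5, 31.4 and 44.2% in the knockdown. Acox57D-d held 21.1, 17.5 and 18.7% in the wild type and 6.60, 10.8 and 6.63% in the knockdown. CG9527 held 43.2 ± 3.61% (SD, n = 3) in the wild type and 36.9 ± 7.13% (SD, n = 3) in the knockdown, shares that overlap. Such shares are taken within a library and do not depend on how libraries are scaled.

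**Figure D2:**
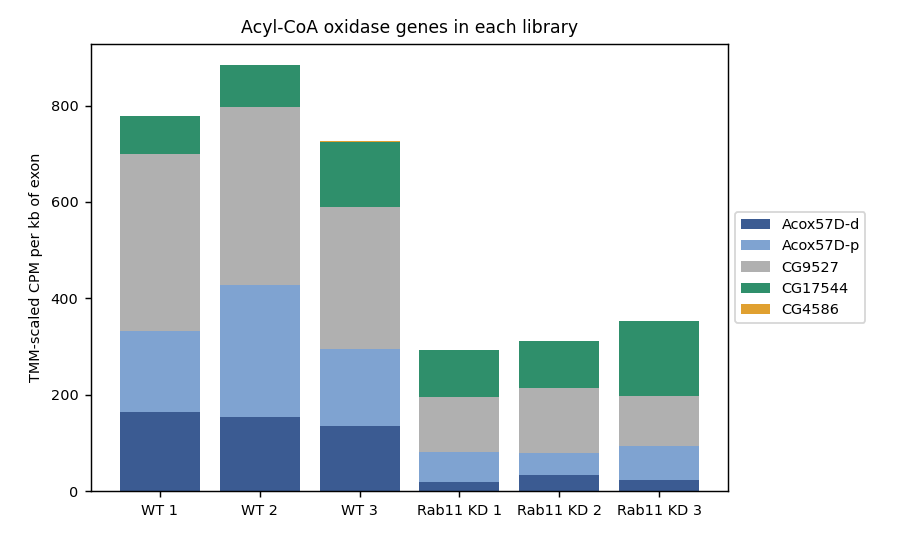
Summed level of 5 acyl-CoA oxidase genes in each library, as TMM-scaled CPM per kilobase of exon, stacked by gene. The 3 wild-type bars reach 725 to 884 and the 3 knockdown bars 294 to 354, while the segment of CG17544 stays similar in height; CG4586 is too low to be seen.

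Both listed acyl-CoA synthetases, which activate fatty acids for either organelle, fell. CG3961, a long chain acyl-CoA synthetase, had the largest fall of the 33 genes. It stood at 47.9, 56.6 and 60.4 CPM in the wild type and at 5.94, 8.82 and 8.502 CPM in the knockdown. The 2 groups were far apart and tight, and 14.1% of the level was left (log2 fold change -2.83 ± 0.23 SE, edgeR adjusted p = 0.00181).

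The gene bgm, or bubblegum, encodes a very long chain acyl-CoA synthetase whose loss in flies raises very long chain fatty acids and causes neurodegeneration. It went from 108, 189.9 and 195 CPM to 24.0, 35.8 and 39.6 CPM, with wild-type replicate 1 the lowest of its group but still above every knockdown library. Its log2 fold change was -2.31 ± 0.31 SE (edgeR adjusted p = 0.00465). Both synthetases passed in each fit without a single library, as did Acox57D-d and whd. These 4 were the only ones of the 33 to do so, where 4.8% of all tested genes did. Acsl, a further acyl-CoA synthetase outside the 36 genes, was added after its values were seen. It stood at 384, 451 and 935 CPM in the wild type and at 153, 139 and 396 CPM in the knockdown. Its groups overlapped and it did not pass (log2 fold change -1.36 ± 0.53 SE, edgeR adjusted p = 0.121, or 0.00562 with the replicate block).

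The carnitine shuttle showed a graded pattern in its 3 genes. The gene whd, or withered, encodes carnitine palmitoyltransferase 1, the rate-limiting enzyme of mitochondrial entry. It stood at 689, 550.4 and 539 CPM in the wild type and at 101, 123 and 177 CPM in the knockdown. The lowest wild-type library was well above the highest knockdown library, and 22.6% of the level was left (log2 fold change -2.15 ± 0.29 SE, edgeR adjusted p = 0.00465).

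The inner membrane carrier colt, or congested-like trachea, exchanges acylcarnitine for carnitine. It went from 231, 190.3 and 133 CPM to 79.1, 104 and 52.4 CPM, and the groups were apart by a smaller gap. The log2 fold change was -1.23 ± 0.32 SE (edgeR adjusted p = 0.0403), and the call was kept only without wild-type replicate 3 (0.0313), with adjusted p of 0.0549 to 0.146 without any other library. CG2107, annotated as CPT2, frees the acyl group from carnitine inside the mitochondrion. It stood at 86.1, 82.7 and 73.0 CPM in the wild type and at 64.3, 60.8 and 62.4 CPM in the knockdown. These libraries did not overlap either, yet the difference was small and did not pass (log2 fold change -0.37 ± 0.17 SE, edgeR adjusted p = 0.177).

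**Figure D3:**
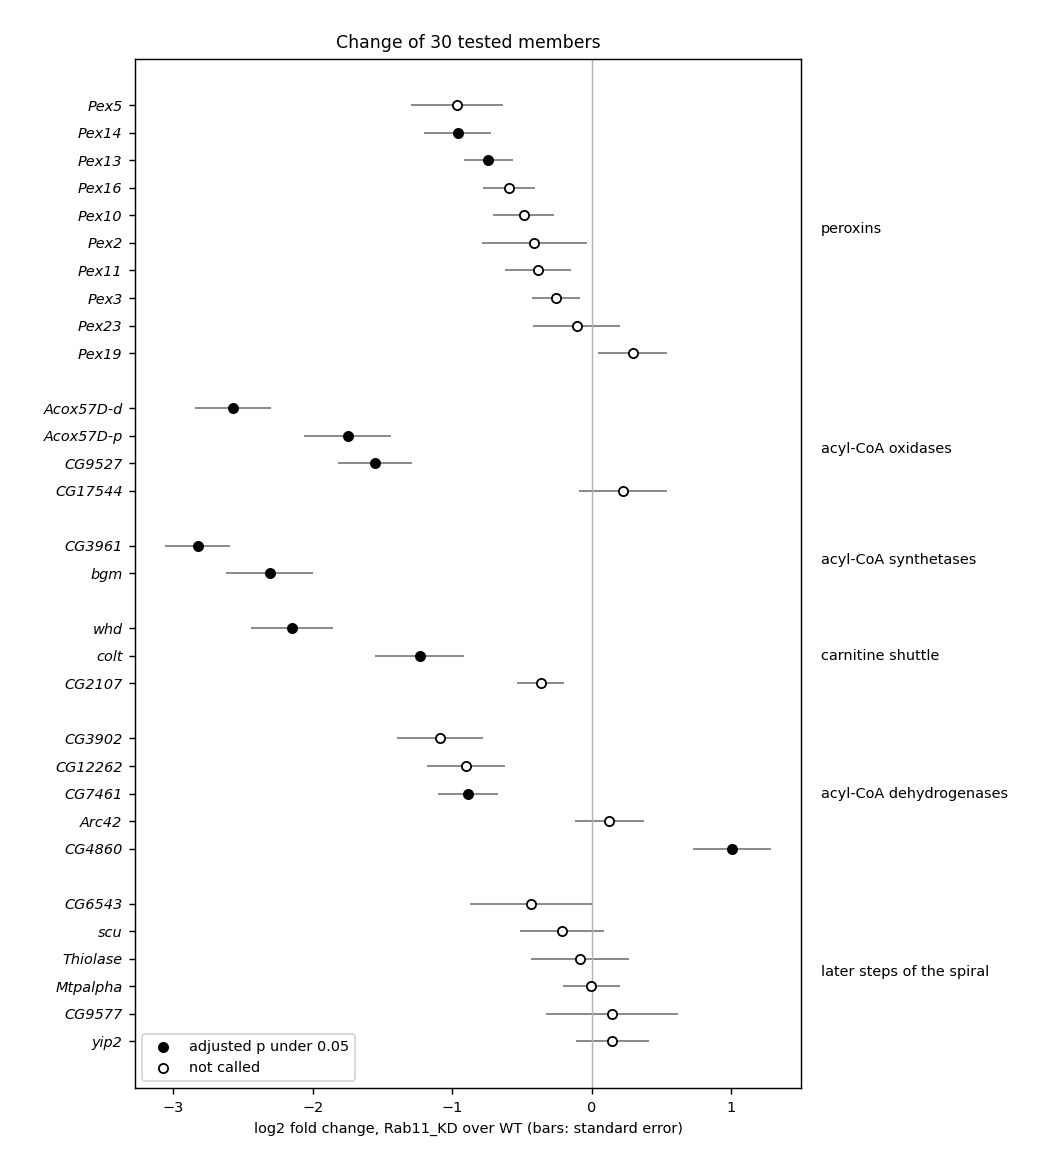
Log2 fold change, knockdown over wild type, of 30 of the tested genes, ordered by role, with bars for the standard error and filled points for an adjusted p under 0.05. The filled points run from -2.83 for CG3961 to -0.74 for Pex13, with CG4860 at 1.01 as the sole filled point above 0.

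Of 5 acyl-CoA dehydrogenases, 1 fell and 1 rose in the TMM fit, beside 7.63% and 9.05% of all tested genes. DESeq2 called 3 of them as lower and 1 as higher, against 10.5% and 10.6% of the genes it tested. The replicate block in edgeR gave 3 and 1 as well, against 14.0% and 15.2% of all tested genes. CG7461, annotated as Acadvl for very long chain substrates, went from 199, 169 and 231 CPM to 97.1, 105 and 123 CPM. Its groups did not overlap and the log2 fold change was -0.89 ± 0.21 SE (edgeR adjusted p = 0.0313). The call was kept only without knockdown replicate 3 (0.0389), with adjusted p of 0.0574 to 0.148 without any other library.

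CG12262, annotated as the medium chain enzyme Mcad, had the highest level per kilobase of all 36 genes in the wild type. It stood at 546.5, 603 and 439 CPM in the wild type and at 227, 366 and 256 CPM in the knockdown. Each knockdown library was lower than each wild-type library, but the adjusted p was 0.068 in edgeR, and 0.024 with the replicate block (log2 fold change -0.90 ± 0.28 SE). In the current annotation 1353 of its 1461 exonic bases lie opposite CG7457, so its reads are uncertain where strand was not used. CG3902, of the short and branched chain kind, stood at 250.5, 241 and 128 CPM in the wild type and at 98.9, 115 and 78.0 CPM in the knockdown. The groups were apart by the margin between wild-type replicate 3 and knockdown replicate 2 alone, and the adjusted p was 0.0526, or 0.0132 with the replicate block (log2 fold change -1.08 ± 0.31 SE).

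CG4860, a further acyl-CoA dehydrogenase, was the sole gene of the 33 that rose. It went from 6.48, 5.73 and 4.78 CPM to 9.97, 9.61 and 14.3 CPM. The lowest knockdown library was above the highest wild-type library, at a level far below that of CG12262, and the log2 fold change was 1.01 ± 0.28 SE (edgeR adjusted p = 0.0469). It missed the threshold whichever library was left out, at an adjusted p of 0.0794 to 0.118, and without both replicate 3 libraries (0.155). In the current annotation 288 of its exonic bases overlap an antisense RNA. Arc42, a short chain dehydrogenase, gave 39.1, 45.4 and 28.2 CPM against 47.6, 43.3 and 32.1 CPM after knockdown, overlapping groups with a log2 fold change of 0.13 ± 0.25 SE (edgeR adjusted p = 0.776).

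The 6 genes of the later steps of the cycle passed no test in edgeR or DESeq2. None had an unadjusted p under 0.05, except for 1 in edgeR with library sizes alone. The log2 fold changes of the 6 in the TMM fit ran from -0.44 to 0.15, with a median of -0.04. Mtpalpha encodes the subunit of the mitochondrial trifunctional protein that hydrates and dehydrogenates long chain intermediates. It stood at 166, 205 and 161 CPM in the wild type and at 181, 196 and 155 CPM in the knockdown, so that the groups fully overlapped. Its log2 fold change was 0.00 within rounding, with an SE of 0.21. Thiolase, now named Mtpbeta, encodes the thiolase subunit of the same complex, and gave 212, 253 and 132 CPM in the wild type and 195, 251 and 119 CPM in the knockdown. Both groups thus had replicate 2 as the highest and replicate 3 as the lowest library.

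The same order by replicate was seen in the other 4 genes of these steps, apart from the lowest 2 libraries of yip2 in the knockdown. The thiolase gene yip2 had 212, 241 and 151 CPM in wild-type libraries and 196, 275 and 198 CPM in knockdown libraries. The hydroxyacyl-CoA dehydrogenase gene scu had 126, 130.4 and 90.0 CPM against 94.2, 138 and 67.8 CPM after knockdown. The enoyl-CoA hydratase gene CG6543, annotated as Echs1, had 291, 299 and 119 CPM against 182, 240.3 and 102 CPM. It gave the lowest log2 fold change of the 6, at -0.44 ± 0.44 SE (edgeR adjusted p = 0.551). CG9577, of the enoyl-CoA hydratase and isomerase family, had 95.1, 128 and 44.6 CPM against 102, 143 and 50.9 CPM. All 6 overlapped between the groups. With standard errors of 0.21 to 0.47 on the log2 scale, these values do not show that the levels were equal. Library sizes alone moved the median of the 6 genes to 0.38, and that of all tested genes to 0.47.

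Of the 14 peroxin rows 12 were tested, and 3 fell and none rose, beside 7.63% and 9.05% of all tested genes. Their median log2 fold change was -0.46, with a range of -0.96 to 0.29. In 10 of the 12 the knockdown library was below the wild-type library in each of the 3 same-numbered pairs, as in 29.0% of all tested genes. With library sizes alone the median was -0.03 and none passed in edgeR (1 at an unadjusted p under 0.05). DESeq2 called 4 as lower, the same 3 and Pex16, beside 10.5% of the genes it tested. None passed in 4 of the 6 fits without a single library, those without replicate 1 or 2 of either group.

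The docking complex that receives cargo at the peroxisome membrane accounted for 2 of the 3 falls. Pex13 stood at 112, 119.7 and 99.96 CPM in the wild type and at 67.5, 69.5 and 61.8 CPM in the knockdown. The groups were tight and apart (log2 fold change -0.74 ± 0.17 SE, edgeR adjusted p = 0.0296). Pex14 went from 174, 140.0 and 118 CPM to 58.7, 88.8 and 74.9 CPM, again without overlap (log2 fold change -0.96 ± 0.24 SE, edgeR adjusted p = 0.0357). Pex13 and Pex14 each kept the call only without wild-type replicate 3 (0.0358 and 0.0316). The adjusted p without any other library was 0.0612 to 0.128 for Pex13 and 0.0588 to 0.153 for Pex14.

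Pex6, an AAA ATPase that helps pull import receptors back out of the membrane, had 0 counts in all 6 libraries, for which the limit of 3 counts allows up to 0.0628 to 0.382 CPM, depending on the library. Pex7, the receptor for the second import signal, had at most 1 count in any library. Neither could be tested, and whether the annotation used let reads be counted at these rows is not known.

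Pex5, the receptor for the main import signal, and Pex16, which acts in membrane assembly, missed the threshold in the TMM fit and passed with the replicate block or without both replicate 3 libraries. Pex5 stood at 120.3, 95.7 and 55.6 CPM in the wild type and at 53.5, 52.9 and 32.9 CPM in the knockdown. Both groups had replicate 3 as the lowest library, and the groups nearly touched (log2 fold change -0.96 ± 0.33 SE, edgeR adjusted p = 0.0897, 0.00972 with the block and 0.0153 without both replicate 3 libraries). Pex16 went from 47.1, 37.6 and 46.0 CPM to 28.1, 25.9 and 32.5 CPM, without overlap (log2 fold change -0.59 ± 0.19 SE, edgeR adjusted p = 0.071, 0.0244 with the block and 0.0478 without both replicate 3 libraries).

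The other 7 tested peroxins did not pass in any of these fits, and their groups overlapped. In the ubiquitin ligase ring, which modifies import receptors for recycling, Pex2 had 8.89, 9.17 and 17.5 CPM in wild-type libraries and 8.63, 5.99 and 12.1 CPM in knockdown libraries. Pex10 had 23.2, 24.7 and 18.7 CPM against 13.6, 18.9 and 15.1 CPM after knockdown. Both were lower in every same-numbered pair, with log2 fold changes of -0.41 and -0.49. Pex3, the membrane anchor of the assembly factor Pex19, had 75.3, 70.3 and 81.2 CPM against 60.7, 58.7 and 70.7 CPM. Pex19 itself was the only peroxin with a positive value in the TMM fit, at 0.29 ± 0.25 SE (edgeR adjusted p = 0.466). Its libraries gave 102, 89.9 and 89.01 CPM against 109, 151 and 84.5 CPM, with knockdown replicate 2 well above the rest. The division factor Pex11 had 48.3, 54.9 and 36.0 CPM against 32.3, 43.9 and 30.4 CPM, and Pex23 had 23.2, 22.5 and 11.6 CPM against 21.1, 17.4 and 14.5 CPM. Pex23 shares 2551 exonic bases with a gene on the opposite strand, so its reads are uncertain where strand was not used. A further Pex11 relative outside the 14 rows, CG13827 (Pex11c in the current annotation), had 13.9 ± 5.13 CPM in wild-type and 13.6 ± 1.09 CPM in knockdown libraries (SD, n = 3 each).

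Over the 16 genes counted to mitochondrial beta-oxidation, 5 fell and 1 rose, beside 7.63% and 9.05% of all tested genes. Their median log2 fold change was -0.40. With library sizes alone this median turned to 0.04, below the 0.47 of all tested genes, and 4 fell and 1 rose. Over all 33 genes, library sizes alone left 6 falls and 1 rise, against 2.86% and 13.8% of all tested genes. The 6 were Acox57D-d, CG9527, CG3961, bgm, whd and colt. Without both replicate 3 libraries 15 fell and none rose, against 11.1% and 9.95% of all tested genes. The authors' deposited table, whose adjusted p all lie under 0.1, lists 14 of the 36 genes as lower and CG4860 as higher. It lists 8.06% of all 15391 rows of the count table as lower. Only 8377 of those rows had enough counts to be tested in edgeR, against 33 of the 36 genes, so the shares differ in base. Of the 13 genes called in edgeR, 11 are in the rows of the authors' deposited table used here, and bgm is one of those that are not. In the authors' deposited table whd has a log2 fold change of -2.09 and CG3961 one of -2.76.

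Other genes of the same organelles were taken from lists chosen with earlier results of these data known. Of 13 other peroxisomal genes 12 were tested, and 6 fell and 1 rose, beside 7.63% and 9.05% of all tested genes. Their median log2 fold change was -1.08. Pmp70, a peroxisomal fatty acid transporter of the ABC family, went from 481, 627 and 674 CPM to 155, 210.0 and 198 CPM, without overlap. Its log2 fold change was -1.66 ± 0.26 SE (edgeR adjusted p = 0.00723, or 0.0537 without knockdown replicate 1). The xanthine dehydrogenase gene ry fell by 1.46 on the log2 scale and passed without any single library. CG11151 fell by 1.34, with adjusted p of 0.0797 without replicate 1 of the knockdown, and of 0.0509 and 0.05003 without replicates 1 and 2 of the wild type. The carnitine acetyltransferase gene CG1041 fell by 1.10, with adjusted p of 0.0771 and 0.058 without replicates 1 and 2 of the knockdown and 0.0625 without replicate 1 of the wild type.

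Catalase and the ether lipid enzyme Dhap-at were added after their values were seen. Cat, which clears the hydrogen peroxide made by oxidases, stood at 1233, 1198 and 762 CPM in the wild type and at 541, 484 and 436 CPM in the knockdown. The lowest wild-type library was well above the highest knockdown library (log2 fold change -1.13 ± 0.30 SE, edgeR adjusted p = 0.0431), and the call was kept only without wild-type replicate 3. Without any other library its adjusted p was 0.0893 to 0.142. Dhap-at, for the first step of ether lipid synthesis, was the sole gene of that list to rise, from 40.4, 28.3 and 49.1 CPM to 67.4, 72.4 and 86.4 CPM (log2 fold change 0.94 ± 0.24 SE, edgeR adjusted p = 0.0396). It passed only without wild-type replicate 3 (0.0306), with adjusted p of 0.0778 to 0.114 without any other library.

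Over 13 other beta-oxidation and electron transfer genes the median log2 fold change was -0.47. Beside 7.63% of all tested genes, 2 of the 13 fell. These were CG10932, an acetyl-CoA acetyltransferase, at -0.87 ± 0.17 SE, and CG13890, of the enoyl-CoA isomerase family, at -0.98 ± 0.24 SE. CG10932 had adjusted p of 0.0913 and 0.0589 without replicates 1 and 2 of the knockdown, and of 0.065 and 0.0588 without those of the wild type. The call of CG13890 was kept only without wild-type replicate 3 (0.0411), and its adjusted p was 0.0519 to 0.127 without any other library.

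Fatty acid synthesis, which runs the other way, had 1 fall among 8 genes, beside 7.63% of all tested genes. The median log2 fold change was -0.46. ACC, the acetyl-CoA carboxylase whose product in mammals blocks carnitine palmitoyltransferase 1, went from 366, 324 and 251 CPM to 177, 151 and 152 CPM (-0.97 ± 0.23 SE, edgeR adjusted p = 0.0301, kept only without wild-type replicate 3). Its adjusted p was 0.0647 to 0.108 without any other library. In the TCA cycle, which burns the acetyl-CoA from beta-oxidation, 2 of 14 genes fell, beside the same 7.63%. The median was -0.31, or 0.12 with library sizes alone. The citrate synthase gene kdn fell by 1.13 and Nc73EF, of the oxoglutarate dehydrogenase complex, by 0.97 on the log2 scale. For kdn the adjusted p was 0.13 and 0.0589 without replicates 1 and 2 of the knockdown, and 0.0927 and 0.0711 without those of the wild type. The call of Nc73EF was kept only without wild-type replicate 3 (0.0397), at 0.0718 to 0.158 without any other library.

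Of 8 regulators, 7 were tested and 2 fell, beside 7.63% of all tested genes. The transcription factor gene foxo, active in fasting, went from 107, 90.6 and 140.1 CPM to 40.9, 29.7 and 55.0 CPM, without overlap (log2 fold change -1.42 ± 0.28 SE, edgeR adjusted p = 0.0175). Its adjusted p was 0.083 and 0.0535 without replicates 1 and 2 of the knockdown, and 0.0537 without replicate 1 of the wild type. The nuclear receptor gene ERR fell by 0.94, with adjusted p of 0.0856 and 0.0686 without those replicates of the knockdown and 0.0826 without replicate 1 of the wild type. Hnf4, added after its values were seen, encodes a nuclear receptor that in flies is needed to express beta-oxidation genes in starvation. It stood at 105, 131 and 96.2 CPM in the wild type and at 84.8, 79.1 and 98.5 CPM in the knockdown, so that the groups overlapped (log2 fold change -0.34 ± 0.20 SE, edgeR adjusted p = 0.292).

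**Figure D4:**
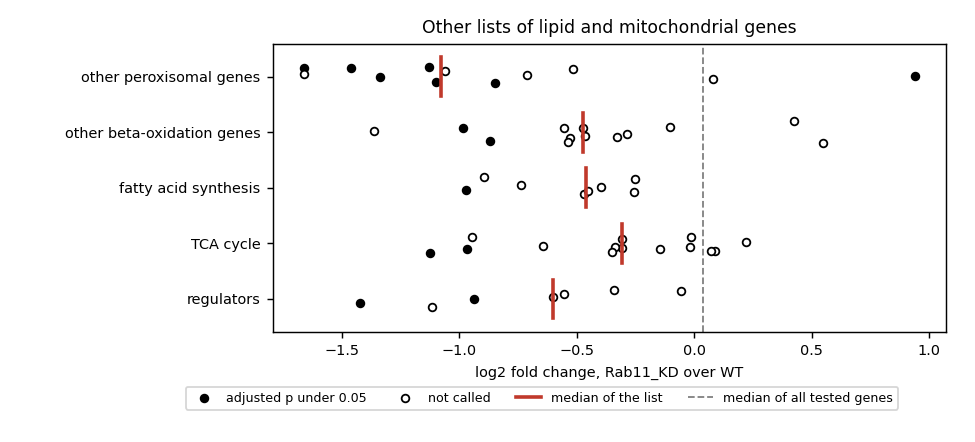
Log2 fold change, knockdown over wild type, of the tested genes in each of the 5 other lists, with filled points for an adjusted p under 0.05, red bars for the median of a list and a dashed line for the median of all tested genes at 0.04. The medians run from -1.08 for other peroxisomal genes to -0.31 for the TCA cycle.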

How the data were processed

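What the authors deposited is a matrix of unnormalised read counts. The submitters' processing notes name STAR 2.4.2a, HTSeq 0.6.1, DESeq2 and the build BDGP5. The sources used here give no annotation, counting mode or strand setting. A second table, per the file headers DESeq2 output of the authors, holds mean counts and Wald statistics (scores), log2 fold changes and p-values. The labels mention Illumina and Ion Torrent protocols without assigning libraries, so platform entered no fit. Whether libraries came from separate flies is not stated. The p-values thus reflect spread between libraries, which may be technical. Libraries of a group differed by more than sampling noise (chi-square per gene of 67.7 to 376).

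Genes passing filterByExpr (minimum count 10) were scaled by TMM and tested with edgeR 4.0.16 in R 4.3.3, two-sided, with group as the sole term. The SE is the log2 fold change divided by the root of F. Alternatives were DESeq2 1.42.0, other scalings, no filter, a replicate block and fits without libraries. Same-numbered libraries deviated from their group means together, with correlations of 0.14, 0.21 and 0.71. Because all 3 exceeded 0.1 the numbers were used as pairs. The ground for this is weak for replicates 1 and 2, as knockdown 1 correlated at 0.34 with wild type 2 and knockdown 2 at 0.51 with wild type 1. Replicate 3 alone correlated most with its own number. The pair counts and the replicate block carry this limit. The tests were checked on simulated counts, with 48 to 50 genes changed at each fold. Changes of 1.5-fold and 2-fold were recovered in 0% and 2.08% of cases, and those of 4-fold and 8-fold in 64% and 96%. There were 4 false calls among 8290 genes tested. A gene that did not pass may thus still have changed by 2-fold or less, or by 4-fold or more, as not all changes of that size were recovered. Exonic lengths and overlaps are those of Ensembl's BDGP6 annotation, another build, so coordinates and sequences are not printed.

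The members and lists were chosen with earlier results of these data known. The members count in full in every group, but 3 of them are not reported singly here. Of each other list, up to 4 called genes were named in order of p. Acsl, Cat, Dhap-at and Hnf4 were added after their values were seen. Limits from 3 counts cover counting error only.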

Additional observations from a re-analysis of the deposited data

How the results depend on the processing

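Of the 36 genes 13 were called, 3 of them peroxins, 4 oxidases and 6 mitochondrial, beside 14 in the other lists and 1397 over all genes. Library sizes alone gave 7 (0 peroxins, 2 oxidases) and 4 in the other lists; DESeq2 gave 22 in the other lists. No filter left 1 peroxin, and 5 passed without both replicate 3 libraries. With the replicate block 5 peroxins, 23 genes of the other lists and 2451 of all genes passed, and the block brought in Pex5, Pex16, CG12262 and CG3902 and changed no other call of the 33. Leaving out each library in turn gave 4 to 12 of the 36 genes, 0 to 3 peroxins, 1 to 4 oxidases, 3 to 5 mitochondrial genes, 1 to 15 genes of the other lists and 460 to 1138 of all genes. The cause was not tested. Those fits also held fewer libraries than the full fit, and the part of that was not tested either.

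Signs turned for genes with small or modest log2 fold changes in the TMM fit, among them Pex2 (-0.41), Pex11 (-0.38), CG2107 (-0.37) and Hnf4 (-0.34). With library sizes alone the log2 fold change was 0.043 for Pex11, 0.037 for Pex2, 0.19 for Pex3, 0.37 for Pex23, 0.42 for Mtpalpha, 0.33 for Thiolase, 0.18 for scu, 0.088 for CG2107, 0.36 for CG13827 and 0.14 for Hnf4, beside the shift of all genes from 0.04 to 0.47. Upper-quartile factors gave 0.074 for Mtpalpha and 0.036 for CG13827, no filter 0.014 for Mtpalpha, and the replicate block 0.0008 for Mtpalpha and 0.007 for CG13827. Without both replicate 3 libraries CG13827 stood at 0.18. Over the fits without 1 library the log2 fold change ran from -0.42 to 0.060 for Pex23, -0.044 to 0.45 for CG17544, -0.11 to 0.12 for Mtpalpha, -0.35 to 0.15 for Thiolase, -0.067 to 0.30 for yip2, -0.091 to 0.29 for Arc42, -0.22 to 0.51 for CG9577 and -0.28 to 0.21 for CG13827. Among the members' values under all alternatives, 346 kept direction and side of the threshold, 47 lost the call, 12 gained it and 24 changed sign. Pex6, Pex7 and CG4586 had too few counts to test; whether depth or the annotation limits Pex6 and Pex7 was not tested.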
